A study of Mus musculus with 16 samples.

Results

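The matrix metalloproteinases, the ADAMTS proteases and their inhibitors, the TIMPs, cut, trim and protect the extracellular matrix. Members were found by name on the array, as the genes whose symbol is Mmp, Adamts or Timp followed by its number. That gave 46 of the 34836 gene names: 23 Mmp genes, 19 Adamts genes and 4 Timp genes, measured with 66 probes. The study asked how satellite cell-derived myoblasts pass from 48 to 72 hr after isolation on their fiber and off it. Its 16 RNA samples fall into 4 groups of 4 arrays: dispersed myoblasts at 48 hr, dispersed at 72 hr, myofiber-associated at 48 hr and myofiber-associated at 72 hr. All came from male C57Bl/6J mice, 11 to 13 weeks old by the labels, which name no transgene and no drug. Dispersed myoblasts grew on gelatin-coated dishes, and each replicate was 1 mouse. Myofiber-associated myoblasts were cultured on explanted fibers and stripped from them with 0.5% trypsin by the labels, with 2 mice for each replicate. The study's methods give a narrower age range and a weaker trypsin. By the labels, 1 of the 4 myofiber-associated replicates at 48 hr pooled 2 preparations, without saying which. Replicate 4 was taken as the pooled replicate, because its title joins 2 numbers. Source names and descriptions call all 16 samples myofibers, so only the growth type in the labels gives the culture.

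Matrix metalloproteinases are zinc enzymes made as inactive precursors, and between them they cleave collagens, laminins, fibronectin and proteoglycans. ADAMTS enzymes are secreted relatives that cleave large proteoglycans such as versican and aggrecan or remove the ends of procollagens. TIMPs block the active sites of matrix metalloproteinases, and *Timp3* also blocks ADAMTS proteases. In muscle these enzymes are known for opening the basal lamina around satellite cells, for releasing growth factors stored in the matrix and for clearing a path for migrating myoblasts.

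Signals are given as the log2 of normalized fluorescence, and a difference of 1 is a doubling. Between 55.2% and 64.3% of the gene spots on an array were well above background, and 0 were saturated. Of the 46 members, 23 were well above background on all 16 arrays, 16 on some arrays and 7 on none. The 7 on no array were *Mmp7*, *Mmp16*, *Mmp20*, *Mmp21*, *Mmp25*, *Mmp28* and *Adamts19*. The 28 members with a median log2 signal of at least 5 over the 16 arrays were tested: 13 Mmp genes, 11 Adamts genes and the 4 Timp genes. The other 18 were too dim to be tested, so counts over the tested members are not counts over the families. Their log2 signals ran from 1.54 to 7.96 over the 16 arrays. The median SD of a gene over the 4 arrays of a group was 0.09 in dispersed myoblasts at 48 hr and 0.10 at 72 hr, against 0.22 and 0.18 for myofiber-associated myoblasts. The array of the pooled replicate stood apart, with a mean correlation of 0.984 with the other arrays of its group, against 0.990 to 0.992 for those arrays. Each culture had a slide of its own, so a difference between cultures cannot be told apart from one between slides. Replicates 1 and 2 of every group sat in the first row of their slide and replicates 3 and 4 in the second, and the times kept to separate columns, 1 and 2 for 72 hr.

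The labels were checked with markers of cell types. A gene is said to be called where limma gave it an adjusted p under 0.01 over all 20317 genes tested, with 4 arrays against 4. Counts of markers or other listed genes that were higher or lower, or rose or fell, are counts of called genes. All 12 myoblast markers were well above background on all 16 arrays, with a summed log2 signal between 17.43 and 18.43. The labels state that no fiber RNA was left in the myofiber-associated preparations. Adult fiber markers, 10 genes of which *Acta1* had the brightest probe, summed to 14.88, 14.38, 13.85 and 13.57 in dispersed replicates 1 to 4 at 48 hr and 13.03, 13.18, 13.07 and 12.93 at 72 hr. On the fiber the same sum was 20.53, 20.30, 20.49 and 20.07 at 48 hr and 18.24, 19.62, 17.87 and 20.02 at 72 hr. Of the 10, 9 were called higher in myofiber-associated myoblasts at 48 hr (median log2 difference 5.90) and 8 at 72 hr (5.17). Endothelial markers, 12 genes led by *Egfl7*, ran the other way, with sums of 16.88, 17.04, 17.17 and 17.30 in dispersed myoblasts at 48 hr and 15.40, 15.68, 15.94 and 15.73 at 72 hr. On the fiber those sums were 14.80, 14.90, 14.25 and 15.43 at 48 hr and 13.58, 13.75, 13.51 and 13.61 at 72 hr. Of these 12 markers, 11 were called lower at 72 than at 48 hr in dispersed myoblasts and 8 on the fiber, while 11 were called lower on the fiber than off it at each time. Whether the adult fiber transcripts came from fibers was not tested, nor was the part of these cells in the members' differences, and in bulk RNA fewer cells of a type and less RNA per cell cannot be told apart.

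**Figure D1:**
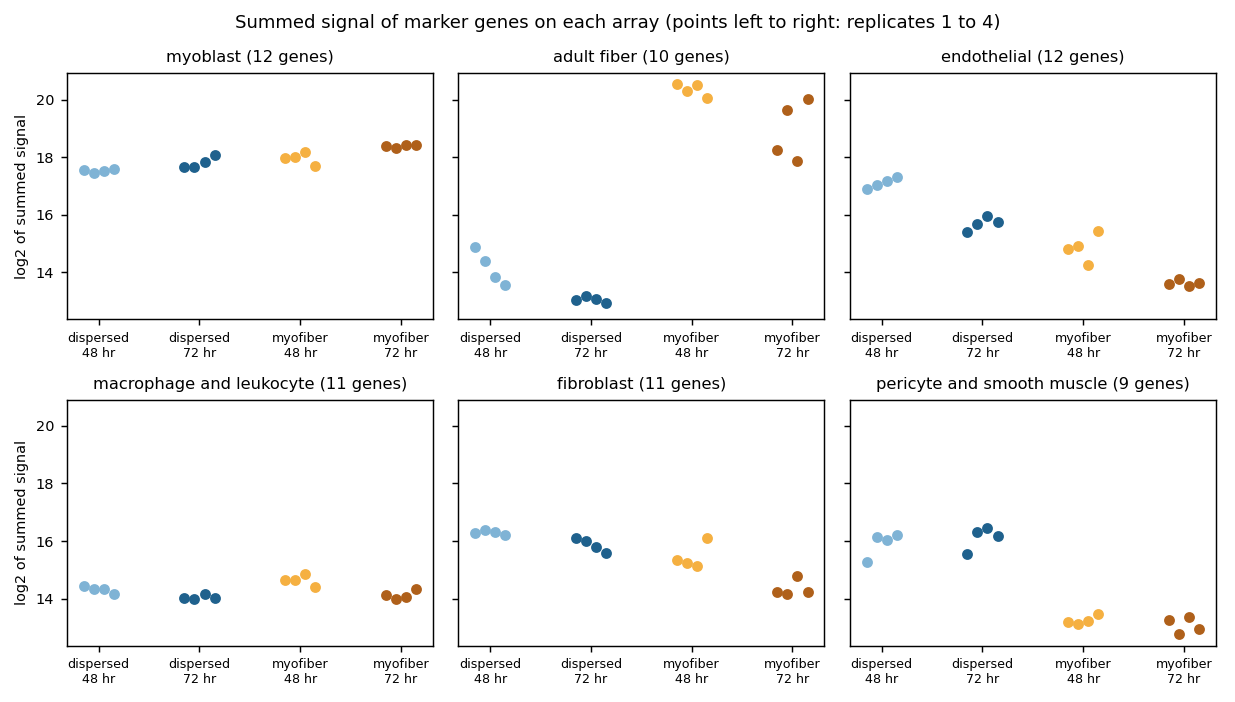
Summed signal (log2) of the markers of 6 cell types on each of the 16 arrays, with 4 points a group for replicates 1 to 4. Adult fiber sums lie between 17.87 and 20.53 on the myofiber-associated arrays and between 12.93 and 14.88 on the dispersed arrays.

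From 48 to 72 hr the members split rather than moving together. In dispersed myoblasts 9 of the 28 tested members were called (13.7% of all genes), 3 higher at 72 hr (7.38% of all genes) and 6 lower (6.32%). Those that rose were *Mmp13*, *Timp2* and *Adamts7*, and those that fell were *Mmp19*, *Adamts9*, *Adamts8*, *Adamts1*, *Timp3* and *Mmp17*. In myofiber-associated myoblasts 6 were called (5.48% of all genes), 2 higher (3.74%) and 4 lower (1.74%). *Mmp15* and *Timp2* rose there, and *Adamts8*, *Timp3*, *Adamts1* and *Adamts2* fell. *Adamts1*, *Adamts8*, *Timp2* and *Timp3* were called in both cultures, each in the same direction. The median log2 difference of the members was -0.03 in dispersed myoblasts, beside 0.02 for all genes, and -0.63 on the fiber, beside 0.06.

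**Figure D2:**
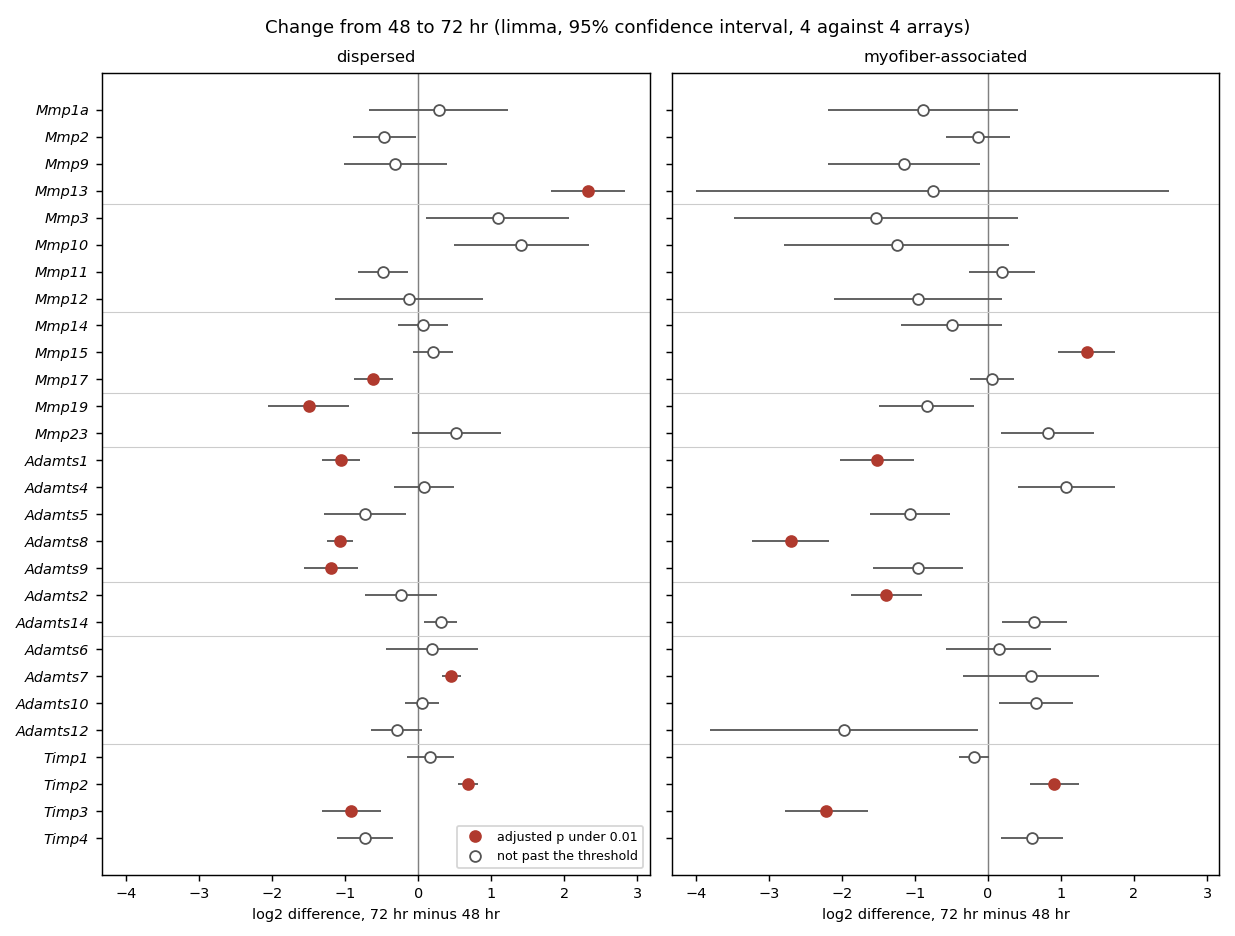
Log2 difference between 72 and 48 hr (horizontal axis) of each of the 28 tested members in the 2 cultures, with its 95% confidence interval from 4 against 4 arrays, grouped by role. Filled points are the 9 and 6 members called, and the widest intervals are those of *Mmp13*, *Mmp3* and *Adamts12* in myofiber-associated myoblasts.

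The comparative ratio (CR) is the change in dispersed myoblasts minus that in myofiber-associated myoblasts on the log2 scale, and it tests whether the 2 changes differ. It was called for 3 members (3.45% of all genes): *Adamts8* was higher (1.09% of all genes were), and *Mmp15* and *Timp4* were lower (2.36%). Its median was 0.19 over the members and -0.07 over all genes. Other members called in 1 culture alone are not shown to differ between the cultures. Between the cultures, 9 members were called at 48 hr (43.2% of all genes), all 9 lower in myofiber-associated myoblasts (27% of all genes were lower) and 0 higher (16.1%). At 72 hr 11 were called (27.1% of all genes), again all of them lower (15.6%) and 0 higher (11.5%). In some other settings a member was called higher on the fiber, at most 1 at 48 hr and at most 2 at 72 hr. *Adamts5*, *Adamts8*, *Adamts9*, *Mmp17*, *Timp1* and *Timp3* were lower on the fiber at both times. *Mmp12*, *Mmp15* and *Timp4* were called at 48 hr alone, and *Adamts2*, *Adamts6*, *Adamts12*, *Mmp10* and *Mmp14* at 72 hr alone. The members' median difference was -0.46 at 48 hr and -0.83 at 72 hr, beside -0.12 and -0.02 for all genes. The 5 comparisons share arrays, so their calls are not independent of each other.

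**Figure D3:**
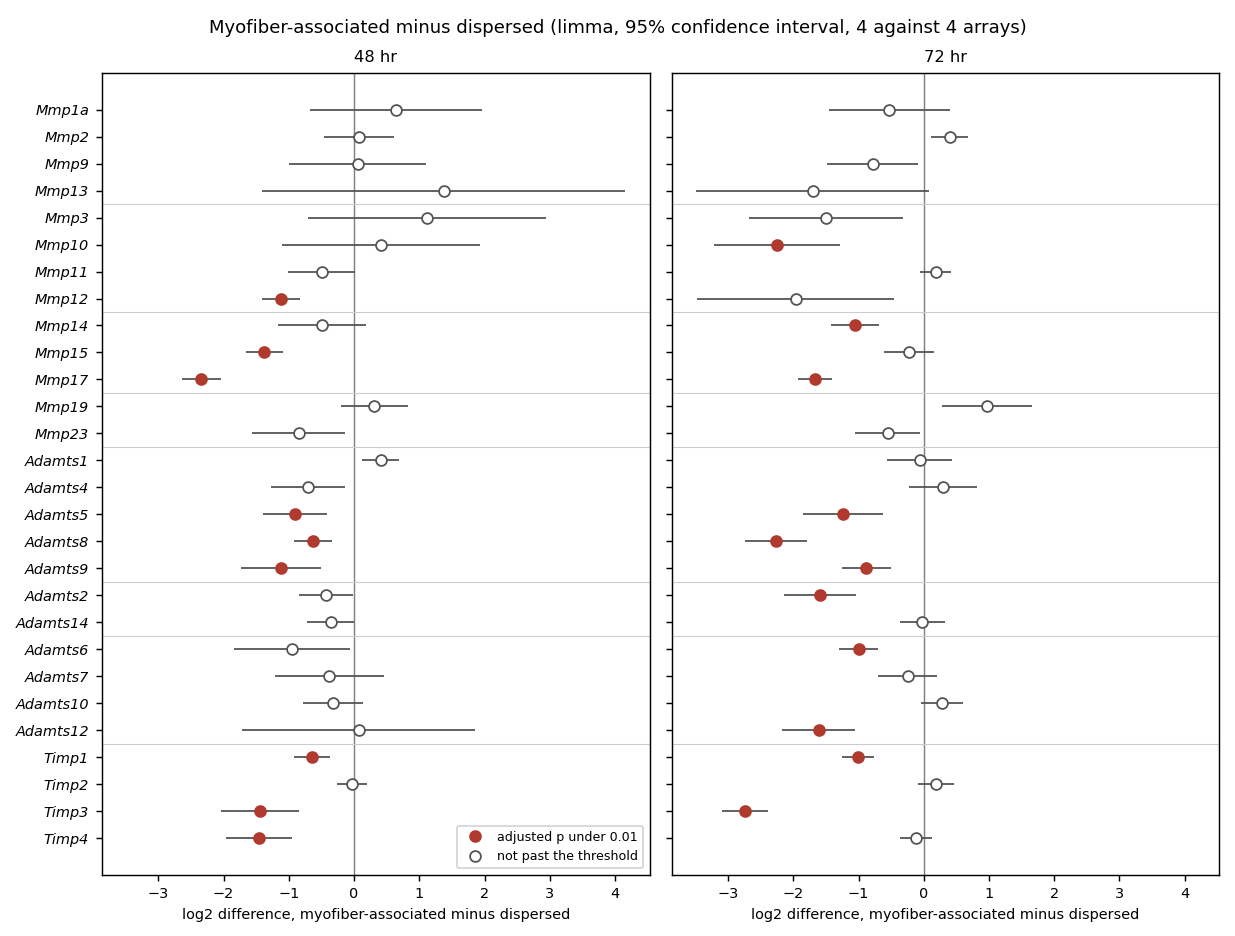
Log2 difference between myofiber-associated and dispersed myoblasts (horizontal axis) of each of the 28 tested members at 48 and at 72 hr, with its 95% confidence interval from 4 against 4 arrays, grouped by role. The 9 filled points at 48 hr and the 11 at 72 hr all lie left of 0, on the side of a lower signal on the fiber.

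In all, 19 of the 28 tested members were called in at least 1 of the 5 comparisons, or 67.9%, against 56.3% of all tested genes. For every call between times or cultures but 1, the groups of 4 arrays did not overlap, and the exact permutation p was 0.0286, the smallest that 70 arrangements can give (two-sided). The exception was *Adamts9* between the cultures at 48 hr (exact permutation p = 0.0571). The CR has no such permutation test. Calls between times and cultures were made from the same values, so the lack of overlap gives them no separate support. The share of all tested genes without overlap was not computed. Leaving out 1 array at a time ended 3 of the 9 calls in dispersed myoblasts at least once, 4 of 6 in myofiber-associated myoblasts, 2 of 3 of the CR, 3 of 9 between cultures at 48 hr and 3 of 11 at 72 hr. Without the pooled replicate, 9 members were called between times in myofiber-associated myoblasts, 14 between cultures at 48 hr and 5 for the CR. The shares of all genes called went from 5.48% to 9.80%, from 43.2% to 54.9% and from 3.45% to 11.7%. Those gained between times were *Adamts5* at -1.25 (adjusted p = 0.00621), *Mmp23* at 1.08 (adjusted p = 0.00737) and *Timp4* at 0.77 (adjusted p = 0.00723).

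Of the Mmp genes, 10 are neighbors on chromosome 9, in the order *Mmp13*, *Mmp12*, *Mmp1b*, *Mmp3*, *Mmp1a*, *Mmp10*, *Mmp8*, *Mmp27*, *Mmp20* and *Mmp7*. RefSeq places no other protein-coding gene among them. Of this run, 5 genes were tested, 4 were well above background on all 16 arrays, 4 on some arrays, and *Mmp20* and *Mmp7* on none. RefSeq promoters, from 250 bases before to 50 bases after the start, were found for 32 of the 46 members and for all 10 of the run (build GRCm38.p6). They were scanned on both strands for 4 motifs, chosen after the members' values were seen, and a match is only a match of letters. The AP-1 letters TGANTCA were in a promoter of 8 of the 10 run members, of 0 of the 22 other members found, and of 7.81% of all 32851 promoters. TATAAA, the core of a TATA box, was in 9 of the 10, in 2 of the 22 and in 13.6% of all promoters. The ETS letters AGGAAG were in 7 of the 10, in 8 of the 22 and in 35.4% of all. E-box letters, CANNTG, were in 9 of the 10, in 14 of the 22 and in 72.3% of all. Both AP-1 letters and TATAAA were in a promoter of 8 run members, and in 1.54% of all promoters. *Mmp8* and *Mmp27* lacked the AP-1 letters in this window, and *Mmp12* and *Mmp7* held them in 1 of their 2 listed promoters.

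The promoters of the 5 tested genes of the run show where the 2 sets of letters lie relative to each start. Each stretch runs 5′ to 3′ from 110 bases before the start to 10 bases after it, a window chosen after the positions were seen, with the AP-1 letters first and TATAAA second in capitals. All 5 lie on the plus strand of GRCm38.p6, *Mmp13* at chr9:7272404-7272523, *Mmp12* at chr9:7347264-7347383, *Mmp3* at chr9:7445712-7445831, *Mmp1a* at chr9:7464031-7464150 and *Mmp10* at chr9:7502232-7502351, and the bases are from RefSeq. The AP-1 letters begin 35 bases before the start of *Mmp13*, 44 before that of *Mmp12*, 46 before that of *Mmp3*, 73 before that of *Mmp1a* and 63 before that of *Mmp10*. TATAAA begins 7 bases before the start of *Mmp3*, and in *Mmp12* it lies after the start.
Mmp13: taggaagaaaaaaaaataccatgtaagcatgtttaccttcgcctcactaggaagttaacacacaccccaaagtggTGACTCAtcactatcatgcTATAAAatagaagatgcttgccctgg
Mmp12: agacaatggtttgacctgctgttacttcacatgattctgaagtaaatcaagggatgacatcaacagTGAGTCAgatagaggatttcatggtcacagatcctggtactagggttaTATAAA
Mmp3: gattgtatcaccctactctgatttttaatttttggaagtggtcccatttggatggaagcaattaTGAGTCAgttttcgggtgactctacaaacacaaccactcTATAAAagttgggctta
Mmp1a: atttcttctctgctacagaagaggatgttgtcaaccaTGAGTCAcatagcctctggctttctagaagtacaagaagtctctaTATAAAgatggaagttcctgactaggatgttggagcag
Mmp10: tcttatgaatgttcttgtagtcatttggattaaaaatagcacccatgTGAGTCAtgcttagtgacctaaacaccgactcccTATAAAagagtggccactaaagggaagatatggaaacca

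The collagenases can open the triple helix of fibrillar collagen, and the gelatinases take on the unwound chains. *Mmp13*, the main interstitial collagenase of rodents, had log2 signals in replicates 1 to 4 of 6.33, 6.76, 6.17 and 6.17 in dispersed myoblasts at 48 hr, 8.95, 8.87, 8.83 and 8.06 in them at 72 hr, 6.69, 5.78, 6.51 and 11.94 in myofiber-associated myoblasts at 48 hr and 6.15, 5.98, 9.59 and 6.17 at 72 hr. All 4 dispersed arrays at 72 hr lay above all 4 at 48 hr, while on the fiber the pooled replicate at 48 hr and replicate 3 at 72 hr stood far above the other 3 arrays of their groups. The rise in dispersed myoblasts was 2.32 on the log2 scale, 4.99-fold (95% interval 1.81 to 2.83, adjusted p = 0.000267), the largest among the members. In myofiber-associated myoblasts the difference was -0.75 (95% interval -3.99 to 2.48, adjusted p = 0.71), and the CR of 3.07 (95% interval -0.24 to 6.39, adjusted p = 0.173) was not called. With 1 array left out, the *Mmp13* difference on the fiber ran from -1.63 to 0.65, turning positive without the pooled replicate, and the CR from 1.67 to 3.95. The deposited table gave -2.78 on the fiber and 4.82 for the CR. *Mmp13* was not called between cultures at 72 hr, with -1.70 (95% interval -3.48 to 0.08, adjusted p = 0.106), but without myofiber-associated replicate 3 the difference was -2.58 (adjusted p = 0.000169). In 1 fit of all 16 arrays, which pools the spread of the 4 groups, the rise in dispersed myoblasts was not called (adjusted p = 0.221).

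*Mmp1a*, the mouse counterpart of human interstitial collagenase, measured 6.25, 6.14, 5.35 and 5.04 (dispersed 48 hr), 6.83, 6.30, 5.58 and 5.18 (dispersed 72 hr), 5.75, 5.20, 6.42 and 7.98 (myofiber-associated 48 hr) and 5.04, 5.08, 6.25 and 5.42 (myofiber-associated 72 hr) in replicates 1 to 4. Its groups overlapped in every comparison, the pooled replicate was the highest of the 16 arrays, and no comparison was called. *Mmp1b*, its close paralog, was too dim to test, with 5.98, 5.20, 4.78 and 3.65 (dispersed 48 hr), 6.89, 7.96, 5.68 and 5.67 (dispersed 72 hr), 3.26, 3.34, 3.76 and 6.22 (myofiber-associated 48 hr) and 1.62, 5.24, 3.77 and 3.52 (myofiber-associated 72 hr). It was well above background on 3 and 4 dispersed arrays at 48 and 72 hr, and on 1 myofiber-associated array at each time, which at 48 hr was the pooled replicate's. *Mmp8*, the neutrophil collagenase, was above background on 2 dispersed and 3 myofiber-associated arrays at 48 hr and on 0 of 8 arrays at 72 hr. With the 72-hr group set to a bound, its mean at 48 hr was 2.15-fold higher in dispersed and 1.98-fold higher in myofiber-associated myoblasts. Arrays at 48 hr that were not well above background are in those means, so these 2 folds are not strict lower limits. With no filter on low signal neither difference was called (adjusted p = 0.0164 and 0.103). For a group in which no array was well above background, the fold is a bound. The dim group is then set, array by array, to the lowest signal of any probe well above background. Where its own signal is higher, that is used.

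*Mmp2*, the gelatinase that also takes part in basement membrane turnover, gave 11.53, 11.37, 10.98 and 10.68 (dispersed 48 hr), 10.83, 10.79, 10.64 and 10.45 (dispersed 72 hr), 11.04, 11.01, 11.03 and 11.77 (myofiber-associated 48 hr) and 11.03, 10.86, 11.33 and 11.06 (myofiber-associated 72 hr). The pooled replicate was the highest array, and the other 3 of its group lay within the range of the dispersed arrays at 48 hr. At 72 hr all 4 myofiber-associated arrays lay above the dispersed arrays, but the difference of 0.39 (95% interval 0.11 to 0.68, adjusted p = 0.0305) was not called. *Mmp9*, the second gelatinase and a product of many leukocytes as well, gave 12.07, 11.99, 11.27 and 10.88 (dispersed 48 hr), 11.55, 11.58, 11.09 and 10.74 (dispersed 72 hr), 11.27, 11.16, 11.04 and 12.94 (myofiber-associated 48 hr) and 10.02, 10.07, 11.23 and 10.50 (myofiber-associated 72 hr). The pooled replicate again led, well above the rest of its group, and the groups overlapped in all 4 comparisons of groups. *Mmp9* was not called anywhere, and between cultures at 72 hr the difference of -0.78 (95% interval -1.48 to -0.09, adjusted p = 0.0634) became -1.04 (adjusted p = 0.00958) without myofiber-associated replicate 3.

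Stromelysins cleave proteoglycans, fibronectin and laminin, and can activate other members of the family. *Mmp3* measured 13.15, 13.33, 12.34 and 11.80 (dispersed 48 hr), 14.30, 14.28, 13.42 and 12.97 (dispersed 72 hr), 13.01, 12.79, 12.92 and 16.37 (myofiber-associated 48 hr) and 11.27, 12.02, 13.61 and 12.07 (myofiber-associated 72 hr). The pooled replicate stood far above the other 15 arrays, dispersed replicates 1 and 2 lay above replicates 3 and 4 at both times, and the times overlapped in both cultures. Its log2 difference was 1.09 (95% interval 0.11 to 2.06, adjusted p = 0.0961) in dispersed and -1.53 (95% interval -3.47 to 0.41, adjusted p = 0.204) in myofiber-associated myoblasts, neither of them called. With 1 array left out, the *Mmp3* difference on the fiber ran from -1.99 to -0.66. With the slide row as a block the dispersed difference was called (adjusted p = 0.00182), and within rows it was 1.05 in slide row 1 and 1.12 in row 2. Between cultures at 72 hr the difference was -1.50 (95% interval -2.67 to -0.32, adjusted p = 0.0427), and -1.95 (adjusted p = 0.00529) without myofiber-associated replicate 3.

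*Mmp10*, a close relative of *Mmp3* with similar substrates, measured 11.23, 11.05, 10.19 and 9.70 (dispersed 48 hr), 12.60, 12.17, 11.76 and 11.27 (dispersed 72 hr), 10.20, 9.98, 10.65 and 12.96 (myofiber-associated 48 hr) and 8.69, 9.55, 10.52 and 10.04 (myofiber-associated 72 hr). Every dispersed array at 72 hr lay above the 48-hr arrays and above every myofiber-associated array at 72 hr, and the pooled replicate was the highest of the 16. At 72 hr *Mmp10* was lower in myofiber-associated myoblasts by 4.77-fold, a log2 difference of -2.25 (95% interval -3.21 to -1.29, adjusted p = 0.0035). The *Mmp10* call was lost without dispersed 72-hr replicate 1, 2 or 3 or myofiber-associated 72-hr replicate 2 (highest adjusted p = 0.013). In dispersed myoblasts the time difference of 1.41 (95% interval 0.49 to 2.34, adjusted p = 0.0336) was not called, although the groups did not overlap (exact permutation p = 0.0286). It was 1.25 in slide row 1 and 1.58 in row 2, and it was called with the row as a block (adjusted p = 0.00137). *Mmp10* had a CR of 2.66 (95% interval 0.87 to 4.46, adjusted p = 0.046).

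*Mmp11*, a stromelysin activated inside the cell by furin, gave 9.97, 10.51, 10.48 and 10.75 (dispersed 48 hr), 9.90, 10.04, 9.98 and 9.86 (dispersed 72 hr), 9.66, 9.74, 9.81 and 10.52 (myofiber-associated 48 hr) and 10.23, 10.09, 10.31 and 9.87 (myofiber-associated 72 hr). Its groups overlapped in all comparisons of groups and none was called, with the largest difference between 2 groups, -0.50 (95% interval -1.01 to 0.02, adjusted p = 0.0878), seen between cultures at 48 hr. Without the pooled replicate that difference was -0.69 (adjusted p = 0.00766), and the CR was called, at -0.87 (adjusted p = 0.00828). Without dispersed 48-hr replicate 1 the *Mmp11* time difference in dispersed myoblasts was called, at -0.64 (adjusted p = 0.00201), where all arrays gave -0.48. *Mmp12*, the macrophage elastase, gave 5.61, 5.65, 5.60 and 5.81 (dispersed 48 hr), 5.27, 5.51, 6.90 and 4.50 (dispersed 72 hr), 4.65, 4.85, 4.40 and 4.28 (myofiber-associated 48 hr) and 2.71, 3.07, 3.28 and 5.26 (myofiber-associated 72 hr). At 48 hr all 4 myofiber-associated arrays lay below all 4 dispersed arrays, and at 72 hr 3 of them were not well above background while replicate 4 lay among the dispersed arrays. At 48 hr the difference between cultures was -1.12 on the log2 scale, 2.18-fold (95% interval -1.42 to -0.83, adjusted p = 0.000192), and *Mmp12* was lower on the fiber. In 1 fit of all 16 arrays the *Mmp12* call was lost (adjusted p = 0.064). At 72 hr the difference of -1.96 (95% interval -3.47 to -0.45, adjusted p = 0.0399) was not called, while 1 fit of all 16 arrays called it (adjusted p = 0.00575). *Mmp7*, the matrilysin, was above background on no array.

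Along the run on chromosome 9, a few arrays stood out in several genes at once. The pooled replicate was the highest of its group for 4 of the 5 tested genes of the run, and also for 13 of the 23 other tested members. At 72 hr myofiber-associated replicate 3 was likewise highest for 4 of the 5 and for 13 of the 23. Among dispersed arrays, both arrays of slide row 1 lay above both of row 2 for 4 of the 5 genes at 48 hr and for 4 of the 5 at 72 hr, against 5 and 6 of the 23 others. On the fiber this held for 1 of the 5 at 48 hr and for 0 at 72 hr, against 2 and 1 of the 23 others. Both arrays of row 2 lay above both of row 1 for 2 and for 5, against 3 and 4 of the 23 others. Those 5 include *Mmp12*, which was well above background on 1 of the 4 myofiber-associated arrays at 72 hr. Whether the row, the preparation or the mouse accounts for this was not tested, and the matching shares of all tested genes were not computed.

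**Figure D4:**
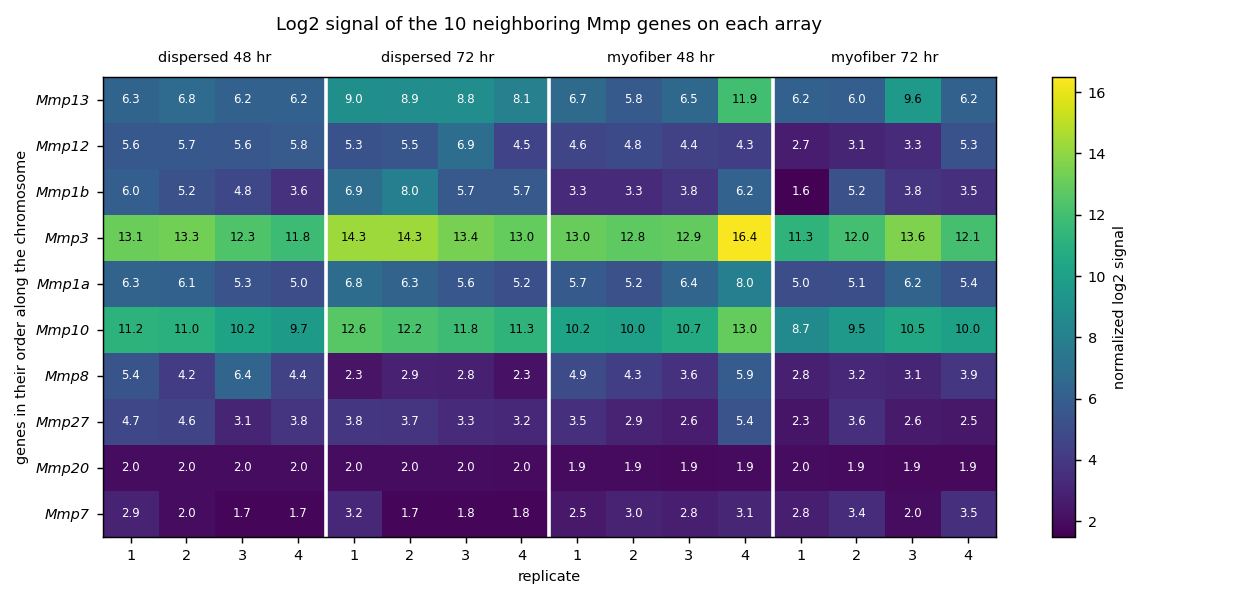
Normalized log2 signal (color and number) of the 10 neighboring Mmp genes, in their order along the chromosome, on each of the 16 arrays (columns, replicates 1 to 4 of each group). Replicate 4 of myofiber-associated myoblasts at 48 hr, the pooled one, holds the highest values of *Mmp13* (11.94), *Mmp3* (16.37), *Mmp1a* (7.98) and *Mmp10* (12.96).

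Membrane-type MMPs stay on the cell surface and cleave matrix next to the cell. *Mmp14*, which activates the precursor of *Mmp2* with the help of *Timp2*, measured 10.36, 10.64, 10.31 and 10.07 (dispersed 48 hr), 10.46, 10.58, 10.54 and 10.06 (dispersed 72 hr), 9.59, 9.66, 9.36 and 10.79 (myofiber-associated 48 hr) and 9.38, 9.09, 9.72 and 9.22 (myofiber-associated 72 hr). The 4 myofiber-associated arrays at 72 hr all lay below the dispersed arrays, and at 48 hr 3 did, with the pooled replicate above every dispersed array. At 72 hr *Mmp14* was lower on the fiber by 2.08-fold, a log2 difference of -1.06 (95% interval -1.43 to -0.68, adjusted p = 0.00149). At 48 hr the difference was -0.49 (95% interval -1.17 to 0.18, adjusted p = 0.179), and -0.81 (adjusted p = 0.00148) without the pooled replicate. Neither time comparison of *Mmp14* was called.

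*Mmp15*, another transmembrane enzyme, measured 8.33, 8.32, 8.29 and 8.72 (dispersed 48 hr), 8.45, 8.55, 8.60 and 8.86 (dispersed 72 hr), 6.96, 7.23, 7.10 and 6.87 (myofiber-associated 48 hr) and 8.56, 8.07, 8.77 and 8.17 (myofiber-associated 72 hr). On the fiber the 4 arrays at 48 hr lay below the other 12 arrays, and those at 72 hr overlapped the dispersed arrays. *Mmp15* rose from 48 to 72 hr in myofiber-associated myoblasts by 1.35 on the log2 scale, 2.56-fold (95% interval 0.96 to 1.74, adjusted p = 0.00256). In dispersed myoblasts its difference was 0.20 (95% interval -0.08 to 0.48, adjusted p = 0.268), and the CR of -1.15 (95% interval -1.62 to -0.69, adjusted p = 0.00513) was called. At 48 hr *Mmp15* was lower on the fiber by 2.6-fold, a log2 difference of -1.38 (95% interval -1.66 to -1.09, adjusted p = 5.65e-05), while at 72 hr the difference was -0.22 (95% interval -0.61 to 0.16, adjusted p = 0.307). The *Mmp15* rise was lost without replicate 1 of either myofiber-associated group (highest adjusted p = 0.0124). Its CR was lost without dispersed 48-hr replicate 2 or 4, dispersed 72-hr replicate 1, 2 or 3, myofiber-associated 48-hr replicate 1 or 3, or 72-hr replicate 1 (highest adjusted p = 0.0139), with normexp (0.0125) and with no filter (0.0109).

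*Mmp17*, held to the membrane by a lipid anchor, measured 9.36, 9.67, 9.49 and 9.68 (dispersed 48 hr), 8.77, 9.15, 9.05 and 8.75 (dispersed 72 hr), 7.23, 7.49, 6.93 and 7.17 (myofiber-associated 48 hr) and 7.37, 7.19, 7.35 and 7.13 (myofiber-associated 72 hr). All 8 myofiber-associated arrays lay below all 8 dispersed arrays, and the dispersed times did not overlap. The difference between cultures was -2.34 on the log2 scale, 5.08-fold (95% interval -2.64 to -2.05, adjusted p = 5.05e-06), at 48 hr. At 72 hr it was -1.67 on the log2 scale, 3.19-fold (95% interval -1.93 to -1.41, adjusted p = 3.16e-05). In dispersed myoblasts *Mmp17* fell from 48 to 72 hr by 0.62 on the log2 scale, 1.53-fold (adjusted p = 0.00621), and in myofiber-associated myoblasts the difference was 0.05 (95% interval -0.24 to 0.35, adjusted p = 0.771). The fall was lost when any dispersed array but 48-hr replicate 1 or 72-hr replicate 2 was left out (highest adjusted p = 0.0213), and with no filter on low signal (0.0167). *Mmp17* had a CR of -0.67 (95% interval -1.05 to -0.30, adjusted p = 0.0241), not called. Of the other membrane-type genes, *Mmp24* was too dim to test, with log2 signals from 3.64 to 4.96 and 14 arrays above background. *Mmp16* and *Mmp25* were above background on none.

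The remaining MMPs belong to no such class. *Mmp19*, which cleaves basement membrane proteins, measured 5.64, 6.15, 5.65 and 5.78 (dispersed 48 hr), 4.65, 4.74, 4.17 and 3.66 (dispersed 72 hr), 6.29, 5.69, 6.67 and 5.81 (myofiber-associated 48 hr) and 4.78, 5.44, 5.02 and 5.85 (myofiber-associated 72 hr). In dispersed myoblasts every array at 72 hr lay below every array at 48 hr, and 2 of those 4 were not well above background. The fall was -1.50 on the log2 scale, 2.83-fold (95% interval -2.06 to -0.94, adjusted p = 0.00325), and on the fiber the difference of -0.84 (95% interval -1.49 to -0.19, adjusted p = 0.0638) was not called. The *Mmp19* fall was lost without dispersed 48-hr replicate 2 or 4 or 72-hr replicate 3 (highest adjusted p = 0.0121) and with no filter on low signal (0.0101). Between cultures at 72 hr *Mmp19* had a difference of 0.97 (95% interval 0.28 to 1.66, adjusted p = 0.0292), and with each array scaled to its 75th percentile it was called higher on the fiber, at 1.25 (adjusted p = 0.00523). *Mmp23*, an unusual member with its membrane anchor at the front end, measured 10.42, 10.25, 9.69 and 9.45 (dispersed 48 hr), 10.84, 10.76, 10.25 and 10.04 (dispersed 72 hr), 9.05, 8.59, 8.86 and 9.89 (myofiber-associated 48 hr) and 9.91, 9.80, 10.33 and 9.63 (myofiber-associated 72 hr). Its times overlapped in both cultures, and the pooled replicate was the highest of its group. No *Mmp23* comparison was called, but with the row as a block the dispersed difference of 0.52 was (adjusted p = 0.00337), being 0.47 in slide row 1 and 0.58 in row 2. Between cultures at 48 hr its difference was -0.85 (95% interval -1.57 to -0.13, adjusted p = 0.0441), and -1.11 (adjusted p = 0.00463) without the pooled replicate. *Mmp27* was above background on 2 arrays, 1 at 48 hr in each culture.

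The proteoglycanase branch of the ADAMTS family holds the enzymes that cut versican and aggrecan. *Adamts1* measured 11.96, 12.35, 12.04 and 12.18 (dispersed 48 hr), 11.05, 11.29, 11.11 and 10.85 (dispersed 72 hr), 12.74, 12.55, 12.28 and 12.58 (myofiber-associated 48 hr) and 11.18, 10.99, 10.40 and 11.48 (myofiber-associated 72 hr). In both cultures every array at 72 hr lay below every array at 48 hr, and the cultures overlapped at each time. It fell with a difference of -1.06 on the log2 scale, 2.08-fold (95% interval -1.32 to -0.79, adjusted p = 0.000484), in dispersed myoblasts. On the fiber the fall was -1.52 on the log2 scale, 2.88-fold (95% interval -2.03 to -1.02, adjusted p = 0.00435). The fall of *Adamts1* on the fiber was lost without replicate 1 or 2 of either time (highest adjusted p = 0.0185) and with no filter on low signal (0.0128), and the CR of 0.47 (95% interval -0.09 to 1.03, adjusted p = 0.217) was not called. Between cultures at 48 hr *Adamts1* had a difference of 0.41 (95% interval 0.12 to 0.69, adjusted p = 0.0209), and without myofiber-associated replicate 3 it was called higher on the fiber, at 0.49 (adjusted p = 0.0088).

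*Adamts8*, another proteoglycanase, measured 9.70, 9.68, 9.61 and 9.87 (dispersed 48 hr), 8.54, 8.73, 8.77 and 8.56 (dispersed 72 hr), 8.96, 9.13, 8.85 and 9.41 (myofiber-associated 48 hr) and 5.81, 6.92, 6.36 and 6.44 (myofiber-associated 72 hr). Its 4 groups did not overlap: dispersed 48 hr was highest, then myofiber-associated 48 hr, dispersed 72 hr and, well below, myofiber-associated 72 hr. The fall in dispersed myoblasts was -1.07 on the log2 scale, 2.09-fold (95% interval -1.24 to -0.89, adjusted p = 8.48e-05). The fall in myofiber-associated myoblasts was -2.70 on the log2 scale, 6.51-fold (95% interval -3.23 to -2.18, adjusted p = 0.000789), the largest among the tested members for this probe. With this probe the fall on the fiber was the larger, with a CR of 1.64 on the log2 scale, 3.11-fold (95% interval 1.09 to 2.18, adjusted p = 0.00193), and that call was kept in all 16 fits without 1 array and in all 9 other settings. Between cultures *Adamts8* was lower on the fiber at 48 hr with a difference of -0.63 (95% interval -0.92 to -0.34, adjusted p = 0.00314) and at 72 hr, with -2.27 (95% interval -2.74 to -1.79, adjusted p = 0.000135). The call at 48 hr was lost without dispersed replicate 4 or myofiber-associated replicate 1 (highest adjusted p = 0.0113) and with the row as a block (0.0126). A second *Adamts8* probe, also well above background on all 16 arrays, gave far smaller differences of the same sign: -0.30 off and -0.28 on the fiber with time, and -0.28 and -0.25 between cultures at 48 and 72 hr. Its CR was -0.02, so with the second probe the fall on the fiber was not the larger. With the mean of both *Adamts8* probes the CR was 0.81, the falls were -0.69 off and -1.49 on the fiber, and the difference at 72 hr was -1.26, all 4 of them called. That fall on the fiber is smaller than the one of *Timp3* (-2.22), which has 1 probe.

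*Adamts9*, which cuts versican and aggrecan, measured 9.85, 10.11, 10.33 and 10.61 (dispersed 48 hr), 8.91, 9.14, 9.21 and 8.87 (dispersed 72 hr), 8.90, 9.05, 8.64 and 9.85 (myofiber-associated 48 hr) and 8.22, 7.89, 8.58 and 7.92 (myofiber-associated 72 hr). In both cultures the 72-hr arrays lay below the 48-hr arrays, and at 48 hr the pooled replicate reached the lowest dispersed array. In dispersed myoblasts *Adamts9* fell, with a difference of -1.19 on the log2 scale, 2.29-fold (95% interval -1.57 to -0.82, adjusted p = 0.00143). On the fiber the difference of -0.96 (95% interval -1.58 to -0.34, adjusted p = 0.0384) was not called, while 1 fit of all 16 arrays called it (adjusted p = 0.00508). *Adamts9* was lower on the fiber at 48 hr, with -1.11 (95% interval -1.73 to -0.50, adjusted p = 0.00733), and at 72 hr, with -0.88 (95% interval -1.26 to -0.50, adjusted p = 0.00366). The 48-hr call was lost when any array but dispersed replicate 1 or the pooled replicate was left out (highest adjusted p = 0.0235), with no filter (0.018) and with the row as a block (0.0138). The 72-hr call was lost without dispersed replicate 2 or 3 or myofiber-associated replicate 2 (highest adjusted p = 0.0139) and with the row as a block (0.0134).

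*Adamts5*, an aggrecanase that lies beside *Adamts1* on chromosome 16, measured 6.08, 6.49, 5.87 and 6.10 (dispersed 48 hr), 4.92, 6.06, 5.47 and 5.16 (dispersed 72 hr), 5.56, 5.51, 5.17 and 4.68 (myofiber-associated 48 hr) and 3.98, 4.21, 3.82 and 4.64 (myofiber-associated 72 hr). At each time the myofiber-associated arrays lay below the dispersed arrays, and on the fiber the 72-hr arrays lay below the 48-hr arrays. It was well above background on all arrays but 1, a myofiber-associated array at 72 hr. *Adamts5* was lower on the fiber at 48 hr, with a difference of -0.91 (95% interval -1.39 to -0.42, adjusted p = 0.00644), and at 72 hr, with -1.24 (95% interval -1.85 to -0.63, adjusted p = 0.00655). The first call was lost without dispersed replicate 1, 2 or 4 or myofiber-associated replicate 3 (highest adjusted p = 0.0193) and with no filter (0.0156). The second was lost when any array but dispersed replicate 1 or myofiber-associated replicate 4 was left out (highest adjusted p = 0.0207), and in 4 other settings: the 75th percentile (0.0162), normexp (0.0166), no filter (0.0151) and the row as a block (0.0219). Its time differences, -0.73 (95% interval -1.30 to -0.17, adjusted p = 0.0586) in dispersed and -1.07 (95% interval -1.61 to -0.52, adjusted p = 0.0189) in myofiber-associated myoblasts, were not called. The second of them was called in 1 fit of all 16 arrays (adjusted p = 0.00419). *Adamts4*, the other classic aggrecanase, measured 12.62, 12.90, 13.04 and 13.24 (dispersed 48 hr), 12.74, 12.86, 13.08 and 13.42 (dispersed 72 hr), 12.13, 12.28, 11.68 and 12.90 (myofiber-associated 48 hr) and 13.54, 12.97, 13.81 and 12.97 (myofiber-associated 72 hr). On the fiber every array at 72 hr lay above every array at 48 hr, and the dispersed times overlapped. *Adamts4* had a difference of 1.07 (95% interval 0.41 to 1.73, adjusted p = 0.0336) on the fiber and was not called in any comparison, while without the pooled replicate the cultures at 48 hr differed by -0.92 (adjusted p = 0.00291). The *Adamts4* time difference on the fiber was called in 1 fit of all 16 arrays (adjusted p = 0.00404).

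The last 2 proteoglycanases were below the filter on low signal, so they were not among the tested members. *Adamts15*, which lies beside *Adamts8* on chromosome 9, measured 4.25, 5.41, 5.99 and 6.48 (dispersed 48 hr), 1.60, 1.77, 2.01 and 2.25 (dispersed 72 hr), 4.74, 4.74, 3.97 and 4.90 (myofiber-associated 48 hr) and 3.96, 3.67, 2.58 and 3.25 (myofiber-associated 72 hr). It was well above background on all 4 dispersed arrays at 48 hr and on none at 72 hr, on 3 myofiber-associated arrays at 48 hr and on 1 at 72 hr. Its dispersed mean was at least 2.94-fold higher at 48 than at 72 hr. *Adamts20* measured 1.81, 1.79, 1.79 and 1.79 (dispersed 48 hr), 1.82, 1.80, 1.76 and 1.76 (dispersed 72 hr), 5.78, 4.20, 4.94 and 3.93 (myofiber-associated 48 hr) and 1.54, 2.72, 1.91 and 2.66 (myofiber-associated 72 hr). It was well above background on the 4 myofiber-associated arrays at 48 hr and on no other array. That mean was at least 2.05-fold higher than on the fiber at 72 hr and at least 1.49-fold higher than in dispersed myoblasts at 48 hr. With no filter on low signal, the dispersed fall of *Adamts15* (adjusted p = 0.00316) and the *Adamts20* difference between cultures at 48 hr (0.00107) were called. In both, the dimmer group had no array well above background, so only the bounds are given.

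The procollagen N-proteinases remove the front end of fibrillar procollagens before fibrils form. *Adamts2* measured 11.93, 12.67, 12.56 and 12.74 (dispersed 48 hr), 11.78, 12.42, 12.46 and 12.30 (dispersed 72 hr), 12.09, 11.87, 12.21 and 12.02 (myofiber-associated 48 hr) and 10.24, 10.52, 10.55 and 11.30 (myofiber-associated 72 hr). The 4 myofiber-associated arrays at 72 hr lay below the other 12 arrays, which overlapped one another. On the fiber *Adamts2* fell from 48 to 72 hr, with a difference of -1.39 on the log2 scale, 2.63-fold (95% interval -1.88 to -0.91, adjusted p = 0.00521). At 72 hr it was lower on the fiber than in dispersed myoblasts, by 3.01-fold with a log2 difference of -1.59 (95% interval -2.14 to -1.03, adjusted p = 0.00141). In dispersed myoblasts its time difference was -0.24 (95% interval -0.73 to 0.25, adjusted p = 0.461), and the CR of 1.16 (95% interval 0.48 to 1.83, adjusted p = 0.028) was not called. The mean of both its probes had a called CR, 1.36 (adjusted p = 0.00631), as did the fit without myofiber-associated 72-hr replicate 4, 1.37 (adjusted p = 0.00428). The *Adamts2* fall was lost when any myofiber-associated array but replicate 4 of either time was left out (highest adjusted p = 0.0211) and with no filter (0.0144). Between cultures at 48 hr *Adamts2* had a difference of -0.43, and it was called without dispersed replicate 1, at -0.61 (adjusted p = 0.00266).

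*Adamts14*, with the same activity, measured 14.15, 13.95, 14.06 and 14.17 (dispersed 48 hr), 14.25, 14.28, 14.37 and 14.65 (dispersed 72 hr), 13.55, 13.92, 13.36 and 14.08 (myofiber-associated 48 hr) and 14.51, 14.13, 14.68 and 14.14 (myofiber-associated 72 hr). In each culture the 72-hr arrays lay above the 48-hr arrays, narrowly on both sides. Neither time difference was called, at 0.30 (95% interval 0.08 to 0.53, adjusted p = 0.0505) in dispersed and 0.64 (95% interval 0.19 to 1.08, adjusted p = 0.0483) in myofiber-associated myoblasts. The fiber difference was called in 1 fit of all 16 arrays (adjusted p = 0.00569). *Adamts3*, the third of this branch, was too dim to test and was above background on 12 arrays. Its group means were 3.99 ± 0.35, 4.37 ± 0.14, 3.76 ± 0.30 and 4.18 ± 0.32 (log2 signal, SD, n = 4) for dispersed 48 hr, dispersed 72 hr, myofiber-associated 48 hr and myofiber-associated 72 hr.

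Among the remaining ADAMTS genes, *Adamts7* and *Adamts12* are known for cutting cartilage oligomeric matrix protein. *Adamts7* measured 8.98, 9.06, 9.04 and 9.06 (dispersed 48 hr), 9.37, 9.46, 9.52 and 9.60 (dispersed 72 hr), 8.25, 8.58, 7.94 and 9.87 (myofiber-associated 48 hr) and 9.20, 8.89, 9.86 and 9.03 (myofiber-associated 72 hr). In dispersed myoblasts the times did not overlap and each group was tight, whereas on the fiber the pooled replicate at 48 hr and replicate 3 at 72 hr lay well above the rest of their groups. *Adamts7* rose in dispersed myoblasts by 0.45 on the log2 scale, 1.37-fold (95% interval 0.32 to 0.58, adjusted p = 0.000922). On the fiber its difference was 0.59 (95% interval -0.35 to 1.52, adjusted p = 0.304), from 0.35 to 0.99 with 1 array left out, and in 1 fit of all 16 arrays the dispersed rise was lost (adjusted p = 0.442). Without the pooled replicate the cultures at 48 hr differed by -0.78 (adjusted p = 0.0017), and without myofiber-associated replicate 3 those at 72 hr by -0.45 (adjusted p = 0.0089), where all arrays gave -0.38 (95% interval -1.21 to 0.46, adjusted p = 0.395) and -0.24 (95% interval -0.69 to 0.21, adjusted p = 0.343).

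*Adamts12* measured 5.58, 6.08, 5.54 and 5.86 (dispersed 48 hr), 5.26, 5.74, 5.30 and 5.57 (dispersed 72 hr), 4.79, 4.89, 8.55 and 5.11 (myofiber-associated 48 hr) and 4.04, 3.99, 3.13 and 4.28 (myofiber-associated 72 hr). At 72 hr the fiber arrays all lay below the dispersed arrays, and at 48 hr replicate 3 stood far above the other 15 arrays while the other 3 of its group lay below all dispersed arrays of that time. At 72 hr, myofiber-associated replicate 3 was not well above background. *Adamts12* was lower on the fiber at 72 hr, with a difference of -1.61 on the log2 scale, 3.05-fold (95% interval -2.17 to -1.05, adjusted p = 0.00138). In 1 fit of all 16 arrays this call was lost (adjusted p = 0.0461). At 48 hr the difference was 0.07 (95% interval -1.72 to 1.86, adjusted p = 0.946), and without replicate 3 the sign turned and it was called, at -0.84 (adjusted p = 0.00345). Its time difference on the fiber was -1.98 (95% interval -3.81 to -0.14, adjusted p = 0.101), with no overlap and no call (exact permutation p = 0.0286). With 1 array left out, it ran from -2.32 to -1.07, nearest to 0 without replicate 3 at 48 hr.

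*Adamts6*, a relative of *Adamts10*, measured 6.51, 6.31, 6.03 and 5.21 (dispersed 48 hr), 6.16, 6.24, 6.49 and 5.91 (dispersed 72 hr), 4.86, 5.24, 4.23 and 5.91 (myofiber-associated 48 hr) and 5.26, 5.35, 5.18 and 5.02 (myofiber-associated 72 hr). The myofiber-associated arrays at 72 hr lay below the dispersed ones, and those at 48 hr, 1 of them not well above background, overlapped them. *Adamts6* was lower on the fiber at 72 hr, with a log2 difference of -0.999 (95% interval -1.30 to -0.70, adjusted p = 0.00068), and the call was lost in 1 fit of all 16 arrays (adjusted p = 0.017). *Adamts10*, which binds fibrillin, measured 6.88, 6.65, 6.48 and 6.79 (dispersed 48 hr), 6.60, 6.93, 6.71 and 6.78 (dispersed 72 hr), 6.50, 6.43, 5.80 and 6.77 (myofiber-associated 48 hr) and 7.08, 6.65, 7.28 and 7.12 (myofiber-associated 72 hr). Its groups overlapped in every comparison and none was called. A second *Adamts10* probe was above background on 2 arrays. With the mean of both probes, the cultures at 48 hr differed by -0.81 (adjusted p = 0.00769), against -0.32 with the brightest. At 72 hr the difference of 0.28 ran from -0.23 to 0.41 in other settings. The *Adamts10* time difference on the fiber, 0.65, was called in 1 fit of all 16 arrays (adjusted p = 0.00937). Of the genes too dim to test, *Adamts13*, the protease of von Willebrand factor, was above background on 1 array, *Adamts16* on 1, *Adamts17* on 6 and *Adamts18* on 7. *Adamts17* was above background on the 4 dispersed arrays at 72 hr and on none at 48 hr, with a mean at least 1.09-fold higher.

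TIMPs bind the active sites of MMPs, and *Timp3* also blocks ADAMTS proteases and stays bound to the matrix. *Timp1* measured 17.36, 17.48, 17.38 and 16.93 (dispersed 48 hr), 17.56, 17.61, 17.47 and 17.18 (dispersed 72 hr), 16.65, 16.58, 16.73 and 16.61 (myofiber-associated 48 hr) and 16.42, 16.43, 16.35 and 16.61 (myofiber-associated 72 hr). All 8 myofiber-associated arrays lay below all 8 dispersed arrays, and the dispersed times overlapped. *Timp1* was lower on the fiber at 48 hr by 1.57-fold, a log2 difference of -0.65 (95% interval -0.93 to -0.37, adjusted p = 0.00215), and at 72 hr by 2.01-fold, with -1.004 (95% interval -1.25 to -0.76, adjusted p = 0.000262). Neither of its time comparisons was called.

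*Timp2*, which also helps *Mmp14* to activate *Mmp2*, measured 15.04, 15.19, 15.08 and 14.9999 (dispersed 48 hr), 15.67, 15.77, 15.76 and 15.86 (dispersed 72 hr), 14.90, 14.90, 15.24 and 15.15 (myofiber-associated 48 hr) and 16.11, 15.81, 16.20 and 15.68 (myofiber-associated 72 hr). In both cultures every array at 72 hr lay above every array at 48 hr, and at each time the cultures overlapped. It rose in dispersed myoblasts by 0.68 on the log2 scale, 1.61-fold (95% interval 0.55 to 0.82, adjusted p = 0.000171). The rise in myofiber-associated myoblasts was 0.91 on the log2 scale, 1.87-fold (95% interval 0.57 to 1.24, adjusted p = 0.00615), and the CR of -0.22 (95% interval -0.56 to 0.12, adjusted p = 0.335) was not called. The *Timp2* rise on the fiber was lost when any array but replicate 4 of either time was left out (highest adjusted p = 0.0246), with no filter (0.0147) and with the row as a block (0.0116). A second *Timp2* probe gave 0.68 and 0.75 for the 2 cultures.

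*Timp3* measured 11.69, 12.16, 11.82 and 12.14 (dispersed 48 hr), 10.81, 11.38, 11.22 and 10.72 (dispersed 72 hr), 11.26, 10.16, 10.57 and 10.05 (myofiber-associated 48 hr) and 8.36, 8.23, 8.19 and 8.40 (myofiber-associated 72 hr). The 4 groups did not overlap except that myofiber-associated replicate 1 at 48 hr lay among the dispersed arrays at 72 hr, and the fiber arrays at 72 hr lay far below all others. The fall in dispersed myoblasts was -0.92 on the log2 scale, 1.89-fold (95% interval -1.32 to -0.51, adjusted p = 0.00694). On the fiber *Timp3* fell by 4.64-fold, with a log2 difference of -2.22 (95% interval -2.78 to -1.65, adjusted p = 0.00165). The CR of 1.30 (95% interval 0.61 to 1.98, adjusted p = 0.0192) was not called, and it was without the pooled replicate, at 1.45 (adjusted p = 0.00566). Between cultures *Timp3* was lower on the fiber by 2.72-fold at 48 hr, with -1.44 (95% interval -2.04 to -0.85, adjusted p = 0.00183). At 72 hr it was lower by 6.68-fold, with -2.74 (95% interval -3.09 to -2.39, adjusted p = 1.48e-05). The dispersed fall was lost when any dispersed array but 48-hr replicate 1 or 72-hr replicate 2 was left out (highest adjusted p = 0.023), in 1 fit of all 16 arrays (0.0183), with no filter (0.0189) and with the row as a block (0.0106).

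*Timp4*, known from heart and skeletal muscle, measured 6.85, 6.49, 6.04 and 6.56 (dispersed 48 hr), 5.92, 5.82, 5.78 and 5.51 (dispersed 72 hr), 4.94, 5.04, 4.62 and 5.53 (myofiber-associated 48 hr) and 5.55, 5.71, 5.79 and 5.50 (myofiber-associated 72 hr). At 48 hr the fiber arrays lay below the dispersed arrays, and at 72 hr they overlapped. *Timp4* was lower on the fiber at 48 hr by 2.74-fold, with -1.45 (95% interval -1.96 to -0.95, adjusted p = 0.000777), and at 72 hr the difference of -0.12 (95% interval -0.37 to 0.13, adjusted p = 0.389) was not called. Its time differences had opposite signs, -0.73 (95% interval -1.11 to -0.35, adjusted p = 0.0144) off and 0.60 (95% interval 0.18 to 1.02, adjusted p = 0.0482) on the fiber, and neither was called. With the row as a block the dispersed difference was called (adjusted p = 0.00796), being -0.80 in slide row 1 and -0.66 in row 2. The CR of -1.33 on the log2 scale, 2.52-fold (95% interval -1.89 to -0.78, adjusted p = 0.00613) was called. It was lost when any array but dispersed 48-hr replicate 3, myofiber-associated 48-hr replicate 2, the pooled replicate or myofiber-associated 72-hr replicate 4 was left out (highest adjusted p = 0.0161), and with no filter (0.0133).

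**Figure D5:**
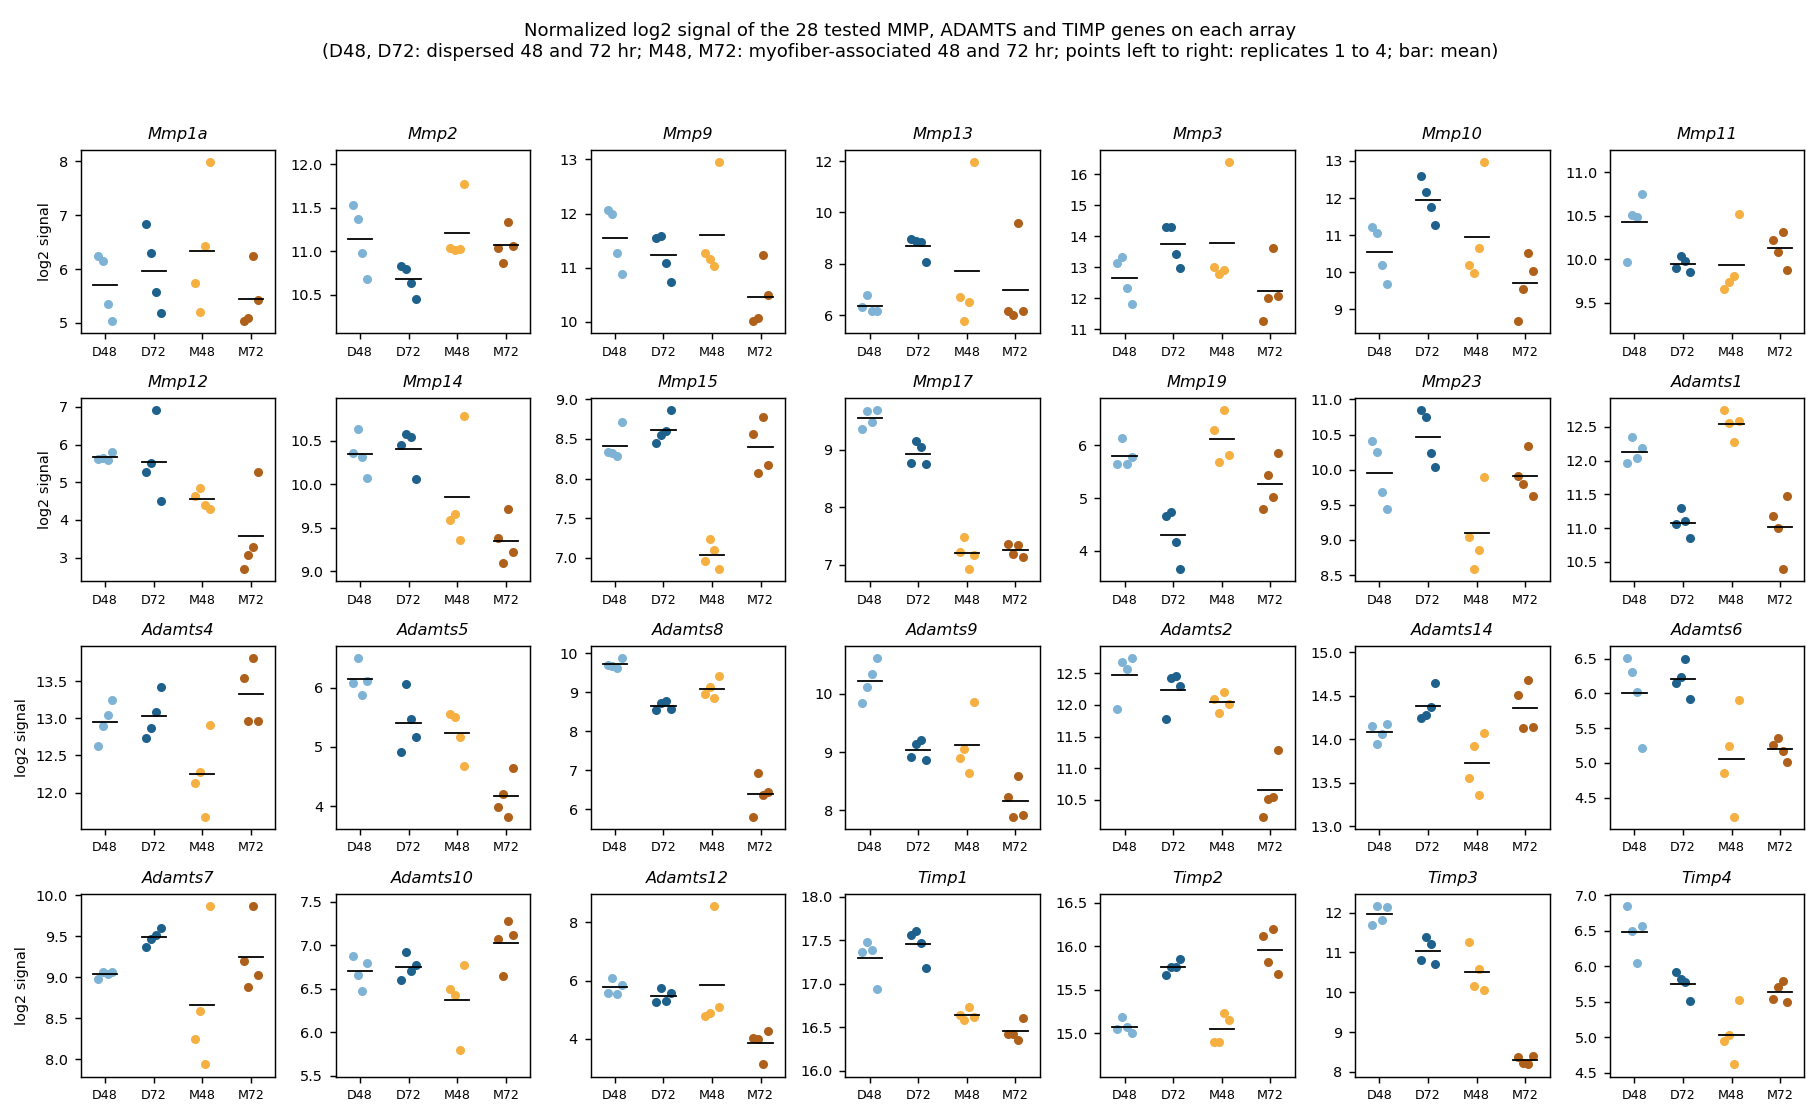
Normalized log2 signal (vertical axis, its own scale for each gene) of the 28 tested members on each array, with points for replicates 1 to 4 of each group and a bar at the group mean. *Timp3* on the fiber drops from 10.51 at 48 hr to 8.29 at 72 hr, while *Timp2* goes from 15.05 to 15.95.

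Of the 11 tested members with 2 probes, 6 had both well above background on all 16 arrays: *Adamts2*, *Adamts4*, *Adamts8*, *Adamts14*, *Mmp11* and *Timp2*. Over 4 comparisons of groups, 23 of their 24 pairs of differences had the same sign, and the exception was *Timp2* between cultures at 72 hr. For the CR 4 of the 6 pairs did, and the sign differed for *Adamts8* (1.64 against -0.02) and *Adamts14* (-0.33 against 0.15). *Adamts2*'s second probe gave -1.60 between times on the fiber and -1.91 between cultures at 72 hr. The second *Adamts9* probe, above background on 15 arrays, gave -1.11 between times in dispersed myoblasts and -0.52 on the fiber, where the brightest gave -1.19 and -0.96. Between cultures it gave -1.22 at 48 hr and -0.63 at 72 hr, against -1.11 and -0.88. *Adamts5*'s was above background on 7 arrays, that of *Adamts12* on 1 and that of *Mmp12* on none. Normexp background correction, which adds an offset of 50 to each signal, shrank the called differences given next by over 1.5 times and kept their signs. Between cultures it gave -0.32, -0.64 and -0.42 for *Mmp12*, *Timp4* and *Adamts5* at 48 hr, and -0.43, -0.44 and -0.47 for *Adamts6*, *Adamts12* and *Adamts5* at 72 hr. The fall of *Mmp19* was -0.53 under it, and the CR was 1.07 for *Adamts8* and -0.62 for *Timp4*.

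Genes that switch these proteases on, block them or clear them made up a list of 27, with 21 tested. In dispersed myoblasts 4 rose and 2 fell, with a median difference of 0.09 over the list. The rises included those of *Serpine2*, an inhibitor of serine proteases, at 0.59 (SE 0.10, adjusted p = 0.00482), and of *Spock2*, a secreted proteoglycan, at 0.51 (SE 0.10, adjusted p = 0.00769). *Plat*, the tissue-type plasminogen activator, fell by 1.72 on the log2 scale (adjusted p = 0.000141), and *Pcsk5*, a proprotein convertase, fell by 0.71 (0.00703). On the fiber 0 rose and 2 fell (median -0.23): *Tfpi2*, a protease inhibitor deposited in the matrix, at -1.58 (SE 0.24, adjusted p = 0.00533), and *Plat* at -1.18 (SE 0.20, adjusted p = 0.00688). The CR was called for 2 genes of the list, with *Tfpi2* at 2.66 (SE 0.36, adjusted p = 0.000973) and a median of 0.04. Between cultures 13 of the 21 were lower on the fiber at 48 hr and 11 at 72 hr, with 0 higher at either time and medians of -0.69 and -0.73.

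ADAM proteases, which shed proteins from the cell surface, and the ADAMTS-like proteins, which lack the protease domain, made up a list of 16 with 13 tested. In dispersed myoblasts 2 rose and 3 fell (median -0.04). *Adam9* rose by 0.51 (SE 0.06, adjusted p = 0.000843) and *Adam19* by 0.39 (SE 0.05, adjusted p = 0.00108), and the differences of those that fell were -1.97 (SE 0.22, adjusted p = 0.000628) for *Adamtsl2*, -1.11 (SE 0.18, adjusted p = 0.00332) for *Adamtsl1* and -0.41 (SE 0.07, adjusted p = 0.0037) for *Adam8*. On the fiber 0 rose and 1 fell, with *Adamtsl1* at -2.65 (SE 0.33, adjusted p = 0.0024) and a median of 0.08. No gene of the list had a called CR (median 0.26), and between cultures 2 were higher and 7 lower on the fiber at 48 hr, and 0 higher and 7 lower at 72 hr (medians -0.50 and -0.41).

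Matrix proteins that these enzymes cleave made up a list of 25 with 22 tested. In dispersed myoblasts 4 rose and 2 fell (median 0.02). Fibronectin (*Fn1*) rose by 0.91 (SE 0.11, adjusted p = 0.00101), the laminin chain *Lama2* by 0.61 (SE 0.04, adjusted p = 5.73e-05) and thrombospondin (*Thbs1*) by 0.49 (SE 0.10, adjusted p = 0.00924). *Vwf*, made by endothelial cells, had a difference of -1.34 (SE 0.14, adjusted p = 0.000467) and the basement membrane collagen *Col4a2* one of -0.70 (SE 0.13, adjusted p = 0.00688). On the fiber 0 rose and 2 fell, *Col1a1*, a chain of fibrillar collagen, at -1.16 (SE 0.21, adjusted p = 0.00905) and the laminin chain *Lamc1* at -0.74 (SE 0.10, adjusted p = 0.00378), with a median of -0.24. Tenascin (*Tnc*), named after its values were seen, alone had a called CR, 1.46 (SE 0.25, adjusted p = 0.00335), with a median of 0.31. At 48 hr 0 were higher and 10 lower on the fiber (median -0.53), and at 72 hr 1 was higher and 15 lower (median -1.06).

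Other cell types that make these proteases were followed by their markers on the same arrays, and their part in the members' values was not tested. Fibroblast markers, 11 genes of which *Cd34* had the brightest probe and is also made by satellite cells, summed to 15.35, 15.22, 15.13 and 16.11 on the fiber at 48 hr, highest in the pooled replicate, which also had the highest endothelial sum and the highest pericyte and smooth muscle sum of its group. In the other groups they summed to 16.23 to 16.40 and 15.57 to 16.09 in dispersed myoblasts at the 2 times and 14.16 to 14.78 on the fiber at 72 hr. Of the 10 tested, 1 was higher and 2 lower at 72 hr in dispersed myoblasts, 0 higher and 3 lower on the fiber, and between cultures 1 higher and 2 lower on the fiber at 48 hr and 0 higher and 5 lower at 72 hr. Macrophage and leukocyte markers, led by *Itgam*, summed to 14.15 to 14.42 and 13.998 to 14.15 in dispersed myoblasts and 14.41 to 14.87 and 13.99 to 14.33 on the fiber, with 3 of 9 tested lower at 72 hr in dispersed myoblasts and 0 called on the fiber. Between cultures 1 higher and 5 lower of those 9 were called at 48 hr and 1 higher and 4 lower at 72 hr. Pericyte and smooth muscle markers, 9 genes led by *Acta2*, summed to 15.28 to 16.21 and 15.55 to 16.46 in dispersed myoblasts and 13.13 to 13.46 and 12.75 to 13.37 on the fiber. Of these 9, 1 was higher and 4 lower at 72 hr in dispersed myoblasts, 1 was lower on the fiber, and 5 and 4 were lower on the fiber than off it at 48 and 72 hr.

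Neutrophil markers, led by *Elane*, summed to 11.48 to 12.09 and 11.02 to 11.54 in dispersed myoblasts and 10.84 to 11.16 and 11.25 to 11.58 on the fiber. *Retnlg* was above background on no array, and of the 4 tested 1 was lower at 72 hr in dispersed myoblasts, 0 were called on the fiber, and 1 was lower on the fiber at each time. Mast cell markers, led by *Tpsb2*, summed to 11.05 to 11.60 and 9.74 to 10.13 in dispersed myoblasts and, on the fiber, 9.21, 8.96, 8.67 and 10.65 at 48 hr, again highest in the pooled replicate, and 8.77 to 8.91 at 72 hr, with 1 of 5 tested lower at 72 hr in dispersed myoblasts, 0 called on the fiber, and 2 and 3 lower on the fiber at 48 and 72 hr. Tenocyte markers, led by *Scx*, summed to 13.33 to 13.62 and 13.23 to 13.68 in dispersed myoblasts and 15.04 to 16.16 and 14.27 to 15.60 on the fiber. *Tnmd* and *Kera* were above background on no array, and of the 4 others 3 were higher and 1 lower on the fiber at 48 hr, 1 was higher at 72 hr, and 1 rose and 1 fell with time in each culture. Of the 5 Schwann cell markers tested, 4 were lower at 72 hr in dispersed myoblasts, 0 were called on the fiber, and 4 and 3 were lower on the fiber than off it at 48 and 72 hr. Of the 12 myoblast markers, led by *Chrna1*, 5 rose in each culture and 0 fell, and between cultures 2 were higher and 4 lower on the fiber at 48 hr and 4 higher and 0 lower at 72 hr. Of the 10 adult fiber markers, 4 fell in dispersed myoblasts and 1 on the fiber.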

How the data were processed

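RNA of 16 samples was measured with 1 color on Agilent mouse arrays, 4 for each culture and time. The authors deposited each spot's fluorescence intensity, background-subtracted and detrended by the scanner software (Feature Extraction 11.0.1.1, per the file headers), with 0 or 1 flags (other values) for outliers, saturation and signal well above background. A second file, of log2 values, was deposited by the authors: it divides each 72-hr array by the mean 48-hr signal of its culture, loess- and quantile-normalized with limma (version not given) per their methods, which was compared and not tested.

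From the deposited intensity, the log2 processed signal was computed here without outlier spots, normalized by loess to the mean of the culture's 48-hr arrays (span 0.3, 4 iterations), then by quantiles over 16 arrays. Copies of a probe were averaged, and each gene was read from its brightest probe. Gene names differed between the slides' files at 1849 spots, 0 of them of members, and those of the first sample were used. Genes with a median of at least 5 were tested, 20317 of 34836, with limma (two-sided, Benjamini-Hochberg over all genes tested, threshold 0.01), within each culture, within each time, and for the CR as the interaction on 16 arrays. Exact permutation used all 70 arrangements of 4 against 4 arrays. A gene counts as well above background on an array if any of its probes has more spots so flagged than not. The fits and the normalization were tested on simulated data.

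The members, their grouping by role and the lists were chosen with earlier results of these data known. The lists are activators, inhibitors and clearance receptors of matrix proteases, ADAM proteases and ADAMTS-like proteins, matrix substrates, and markers of myoblasts, adult fibers, endothelial cells, macrophages and leukocytes, neutrophils, mast cells, fibroblasts, pericytes and smooth muscle, tenocytes and Schwann cells. Every member is accounted for, with each array's value if it passed the threshold in at least 1 of 5 comparisons or was well above background on 16 arrays. Other members are given by counts or ranges, or in full where that describes a bound or the run on chromosome 9. Of the other lists, genes past the threshold in a time comparison are named, at most 3 in each direction, with the brightest probe of each marker list. Of the genes this rule names, 2 are not reported here.

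Alternatives were normexp (offset 50), 75th-percentile scaling, quantile normalization alone, no filter, a filter that asks for 4 arrays of a group above background, the mean of all probes, slide row as a block, 1 fit of all 16 arrays, a threshold of 0.05, each array left out of the fit, and a SAM-type permutation test written anew for the time comparisons. The last first used the mean permuted count, and the median was adopted after the mean was seen to call 0 members. The coding of the row block was also corrected after its counts were seen. Motifs, their scan and the printed window came after the members' values. Promoters are from RefSeq, and 14 members were not in that table. Tables and fits were made in R (version 4.3.3) with limma (3.58.1) and the package data.table (version 1.17.8). Figures and summaries came from Python (3.11.15) through matplotlib (3.10.9), with numpy (2.4.6) and then pandas (2.3.3).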

Additional observations from a re-analysis of the deposited data

Results flagged for a closer look

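In 8 of 112 groups of 4 arrays of the 28 tested members, 1 array lay far from the other 3, where chance marks about 1 in 20 groups. Replicate 4 of myofiber-associated myoblasts at 48 hr, taken as the pooled one, was such an array for *Mmp13* (11.94), *Mmp2* (11.77), *Mmp3* (16.37) and *Mmp9* (12.94). *Adamts12* stood apart in replicate 3 of the same group (8.55). *Mmp13* did so in myofiber-associated replicate 3 at 72 hr (9.59), high, and in dispersed replicate 4 at 72 hr (8.06), low. *Mmp15* was high in dispersed replicate 4 at 48 hr (8.72).

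The change from 48 to 72 hr differed between the cultures, by the test of the CR, for *Adamts8* (1.64), *Mmp15* (-1.15) and *Timp4* (-1.33). The *Adamts8* value is that of 1 of 2 probes: the second gave -0.02, and the mean of both 0.81. Of the 16 fits without 1 array, 8 lost the *Mmp15* call, 12 the *Timp4* call and 0 the *Adamts8* call. Normexp moved the *Timp4* value to -0.62.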

How the results depend on the processing

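No paired analysis was possible because the numbers in the labels name arrays and are not shared by the groups compared within a culture.

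The counts of members called moved by over 1.5 times in these settings, and the cause was not tested. The 3 members called for the CR became 7 at an adjusted p under 0.05 (15.4% of all genes called, from 3.45%) and 1 with no filter on low signal (1.17%). The 6 called between times in myofiber-associated myoblasts became 11 in 1 fit of all 16 arrays (28.4% of all genes, from 5.48%), 16 with the SAM-type permutation test (26.8%), 0 with its mean permuted count (0% of all genes), 11 at an adjusted p under 0.05 (22.6%) and 3 with no filter (1.34%). The 9 called between times in dispersed myoblasts became 0 with the mean permuted count (0% of all genes, from 13.7%). With the median they became 13 (18.9%), a smaller move. Their 3 higher and 6 lower became 6 and 6 with the row as a block (15.4% of all genes called). In 1 fit of all 16 arrays they became 1 and 5 (4.92%). No filter puts all 34836 genes in the adjustment. With the mean permuted count, the lowest q of a member was 0.0143 in dispersed and 0.0121 in myofiber-associated myoblasts.

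With 1 array left out, the counts ran from 6 to 10 between times in dispersed myoblasts, 2 to 9 in myofiber-associated myoblasts, 1 to 5 for the CR, 6 to 14 between cultures at 48 hr and 8 to 14 at 72 hr. The shares of all genes called moved too, in that order from 8.26% to 12.3%, 1.14% to 9.80%, 1.45% to 11.7%, 31.4% to 54.9% and 16.3% to 27.7%. *Adamts12* between cultures at 48 hr ran from -0.84 to 0.42 and was the 1 value to change sign with a call, at -0.84 without replicate 3 of myofiber-associated myoblasts.

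Of 1441 differences of tested members under other settings, 1342 counted as unchanged, 41 were no longer past the threshold, 46 newly were, 0 were reversed and 12 moved. A called difference was unchanged if it kept its sign and its call. One not called was unchanged if it stayed so and shifted by under 1 SD within groups, whatever its sign. It moved if it shifted by more. Values of the deposited table, which have no test, were judged by the shift, and by sign where the main value was called. Of 1344 differences with 1 array left out, 1244 were unchanged by the same rule, 78 were no longer past the threshold, 21 newly were and 1 was reversed. Differences that were not called could change sign and still count as unchanged, as that of *Mmp13* on the fiber did.

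Across genes, the deposited table's mean log2 ratios had a Pearson's r of 0.988 with the dispersed changes and 0.985 with the myofiber-associated changes computed here. The filter, a median log2 signal of at least 5, limits what was tested: 18 of 46 members fell below it, and 34 members passed when all 4 arrays of a group had to be well above background instead. With 4 arrays a group, exact permutation cannot go under 0.0286. Culture and slide coincide, time and slide column coincide, and bulk RNA does not show which cells make a transcript. A probe reports its own stretch of a gene, as the 2 probes of *Adamts8* show.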
